A study of Mus musculus with 2 samples.

Results

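The liver of mice bearing 4T1 liver metastases yielded a small set of keratin-positive cells without the leukocyte gene Ptprc, and these cells are described here. They were barcodes of single-cell RNA sequencing with at least 3 UMIs (unique molecular identifiers, 1 per captured transcript) of Epcam, Krt8 and Krt18 together, no UMI of Ptprc (CD45) and at most 2 UMIs of the macrophage genes C1qa, C1qb and C1qc. The rule and a hashtag call gave 143 members, among 14421 barcodes in the series. Female BALB/c mice (labelled BALB/cAnNCrl, 7 to 8 weeks old) received 4T1-Luc cells by hemisplenectomy. All 3 groups had an infusion into the hepatic artery, of D5W vehicle or of CBL0137 at a low or at a high dose, and cells were taken 5 days later from 2 pooled mice per group. No source used here gives the doses of the sequenced groups. The preparation was meant for leukocytes, by a density gradient per the labels and by CD11b+ beads per the methods, so tumor cells were there only as far as they passed that step. Members came from the library labelled spleen, whose deposited files name the liver and whose other barcodes held the endothelial list of liver vessels at 138 UMIs per 1000000 (CPM) in the vehicle group and 890 CPM in the high dose group.

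4T1 is a BALB/c mammary carcinoma line that spreads to the liver, lung and bone and drives the expansion of myeloid cells, in part through the growth factor G-CSF (Csf3). Krt8 and Krt18 form the keratin filaments of simple epithelia, and hepatocytes also make both, while Epcam is an adhesion molecule of epithelia and carcinomas. CBL0137 is a curaxin, a DNA-binding compound that traps the histone chaperone FACT (Ssrp1 and Supt16) on chromatin and is known to activate p53 and to inhibit NF-kB.

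The groups were told apart by hashtags, short DNA tags carried by antibodies. They are shown because they alone place a cell in a group. The capitals are the whole tag, read 5′ to 3′.
A0301, vehicle: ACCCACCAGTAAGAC
A0305, low dose: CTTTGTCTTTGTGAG
A0310, high dose: CCGATTGTAACAGAC
A group was the hashtag with the most UMIs, if it had at least 10 and at least 3 times the next. Of the 4830 barcodes of the library, 4483 had such a hashtag, 820 in the vehicle, 1318 in the low dose and 2345 in the high dose group. Each group was thus 1 pooled sample, so no test was made and no p-value is given. The 95% intervals below cover counting error only, not the differences between mice. Neither library shared a member's barcode sequence with the other, though 15 barcode sequences occurred in both.

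Cells that met the rule were most frequent in the high dose group. They numbered 13 of 820 barcodes in the vehicle group (1.59%, exact Clopper-Pearson interval 0.847 to 2.70%), 12 of 1318 in the low dose group (0.910%, 0.471 to 1.59%) and 118 of 2345 in the high dose group (5.03%, 4.18 to 6.0%). The high dose interval lay above both others, and the vehicle and low dose intervals overlapped. With at least 1 Epcam UMI required, the 3 intervals overlapped each other in part (vehicle 0.0755 to 1.07%, low dose 0.0184 to 0.547%, high dose 0.522 to 1.31%). The rise was not particular to members: endothelial barcodes numbered 23 of 820, 90 of 1318 and 333 of 2345. Neutrophil transcripts in the barcodes outside the members stood at 147011, 139319 and 79361 CPM. The make-up of the library thus differed between the groups, and its part in the shares of members was not tested. Of the 143 cells, 20 sat at exactly 3 marker UMIs, with a median depth of 1538.5 UMIs, and 30 assigned barcodes just missed the rule with exactly 2, with a median depth of 1103 UMIs. Members carried fewer hashtag UMIs than the other barcodes of their group, with medians of 600 against 2369 after the vehicle, 1662.5 against 1929.5 after the low dose and 442.5 against 622 after the high dose. In the other library 35 barcodes had at least 3 marker UMIs and 2 met the whole rule, both with a dominant hashtag.

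Depth differed between the groups. The median cell had 3882 UMIs in the vehicle group (range 632 to 20501), 23520 in the low dose group (2308 to 45617) and 5475 in the high dose group (519 to 126369). Summed UMIs were 107167, 271505 and 2489238. Cells with at least 10000 UMIs and under 0.5% hepatocyte transcripts numbered 6, 9 and 49 and held 85.2%, 94.4% and 91.9% of the UMIs of their groups. The deepest cell alone gave 19.1% of the vehicle UMIs, 16.8% of the low dose UMIs and 5.08% of the high dose UMIs. No vehicle cell was deeper than 20501 UMIs, whereas high dose cells reached 126369, as the plot of depth by group shows. Median mitochondrial UMIs were 4.30%, 3.90% and 3.66% per cell.

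**Figure D1:**
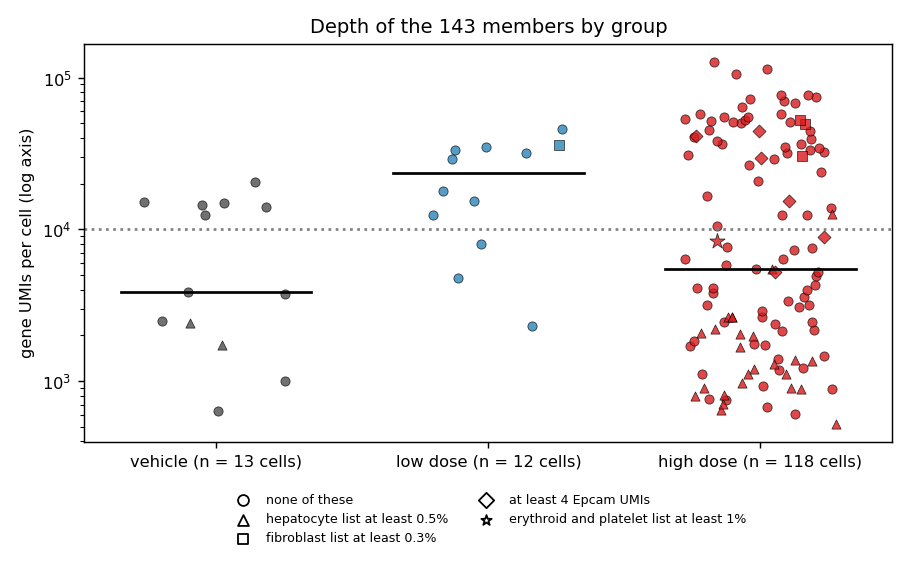
Gene UMIs of each of the 143 members (points, log axis) by group, with the group median as a bar and the shape giving the transcripts of other cell types. The dotted line marks 10000 UMIs, above which 6 vehicle, 9 low dose and 49 high dose cells with under 0.5% hepatocyte transcripts lay.

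The cells were keratin-positive with little Epcam, and most had Vim. Krt8 was detected in 136 of the 143 cells and Krt18 in 132, and 125 had both, which the rule itself favours. Epcam was detected in only 25 (17.5%, 11.6 to 24.7%), against 0.414% of 1208 neutrophil barcodes of the library (0.135 to 0.963%), which should lack it, at median depths of 6415 and 7949.5 UMIs. The rule counts Epcam UMIs too and so favours this difference, which is no independent evidence of what the cells are. Among the 15 genes with the largest fold over the other assigned barcodes were Wfdc2, a secreted protease inhibitor of epithelia and carcinomas (2259 CPM against 64.9 CPM), the tissue inhibitor of metalloproteinases Timp1 (671 against 20.8 CPM), the nuclear lamin Lmna (993 against 50.2 CPM), the chromatin protein Hmga2 of embryonic and malignant cells (303 against 11.5 CPM) and the cyclin Ccnd1 (956 against 62.2 CPM). The others were Krt18, Krt8, Mgp, Tm4sf1, Pcolce, Oaf, Krt7, Msln, Htra1 and Cald1. These genes describe cells picked by their keratins and are not a test.

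The most abundant nuclear transcripts outside the ribosomal proteins were led by Lgals1, which encodes galectin-1, at 13207 CPM, followed by the ferritin heavy chain Fth1 at 10923 CPM and the calcium-binding protein S100a6 at 9980 CPM. Vim, an intermediate filament of mesenchymal cells and of leukocytes, stood at 4502 CPM (1104 CPM in the other barcodes) and was detected in 77.6% of members and 87.4% of the neutrophil barcodes, and the secreted leukocyte protease inhibitor Slpi at 3224 CPM (378 CPM). Cdh1, the epithelial cadherin, had only 1, 2 and 35 UMIs in the vehicle, low dose and high dose cells. Of the 9 mammary genes, 4 were at 0 in all members, among them Elf5, Trp63 and Sox10, while Trps1 (21, 65 and 359 UMIs) and Gata3 (12, 13 and 144 UMIs), transcription factors of mammary epithelium, were present. Csf3, which encodes G-CSF, was detected in 43 of the 143 cells (30.1%) and in 0.662% of the neutrophil barcodes.

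The members were not uniform, and their kinds were separated after their values were seen. In 27 cells (2 vehicle, 25 high dose) hepatocyte transcripts made up at least 0.5% of UMIs. These were shallow (median 1354 UMIs), had Alb in 23 of 27 cells, no Epcam, Krt7 or Krt19 UMI, 36.6 CPM of Vim and 28421 CPM of the metal-binding protein Mt1. Their transcripts thus go against the label of tumor cells. Another 4 cells (1 low dose, 3 high dose) held at least 0.3% of fibroblast transcripts, with Col1a1 at 911 CPM, Col3a1 at 1470 CPM and Dcn at 1524 CPM, and all 4 carried the mesothelial genes Msln (1327 CPM), Upk3b (298 CPM) and Wt1 (250 CPM). Wfdc2 was at 11.9 CPM and Spp1 at 0 in these 4 cells, and the acute phase genes Saa3 and C3 were at 10792 and 5661 CPM. In 1 high dose cell hemoglobin dominated, which gave 98.3% of the erythroid and platelet UMIs of its group.

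At least 4 Epcam UMIs were found in 6 cells, all of the high dose group. As a sum they had more Krt19 (1177 against 165 CPM) and less Vim (1807 against 4786 CPM) than the 105 cells in none of these kinds. A single one of them, of 40955 UMIs, held 91 of the 170 Krt19 UMIs and 1 Vim UMI, with 0.178% of its UMIs in the cholangiocyte list. In 2 others, of 15339 and 44574 UMIs, Vim had 65 and 176 UMIs. 1 of the 6 held all 21 UMIs of the tight junction gene Cldn7 in the members. The 105 remaining cells (11 vehicle, 11 low dose and 83 high dose) held 86.9% of all member UMIs. In these, Col1a1 and Col3a1 were at 0, Alb at 3.21 CPM and Upk3b at 1.2 CPM, and Lgals1 (14148 CPM), Vim (4786 CPM), Wfdc2 (2467 CPM) and the secreted phosphoprotein Spp1 (2382 CPM) were high.

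**Figure D2:**
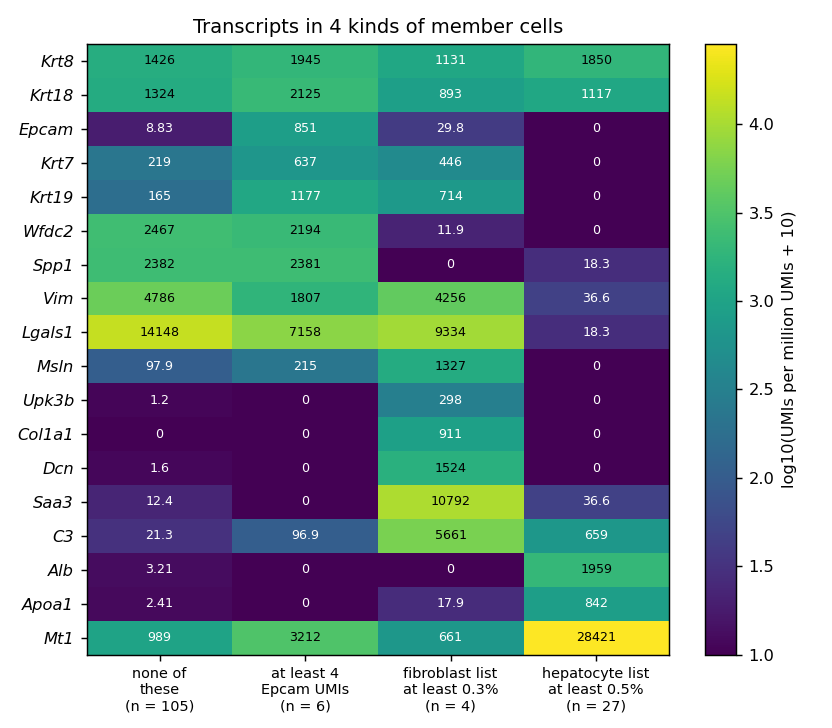
Levels (UMIs per 1000000 UMIs, printed in each cell; color, log10 after adding 10) of 18 genes in 4 kinds of members, separated by hepatocyte transcripts, fibroblast transcripts or Epcam. Krt8 and Krt18 were present in all 4 kinds, whereas Wfdc2 and Spp1 were high in only 2 of them, and Alb and Mt1 were highest in the 27 cells with hepatocyte transcripts.

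The comparison of the high dose with the vehicle asks how keratin-positive cells present 5 days after CBL0137 differed from those of control mice. It was made over all members by the rule, those with hepatocyte or fibroblast transcripts included. Ranked by the interval bound nearest to no change, the largest differences were in genes of cell division, which were higher in the high dose cells. By the same rank, and within the limit on single cells given under the processing, the genes higher in the vehicle cells were led by Lcn2, Taok3 and Cited2. Of 7409 genes that reached 30 UMIs in both groups together, 850 (11.5%) were at least 2-fold higher and 953 (12.9%) at least 2-fold lower after the high dose. A count of 0 was set to 3 UMIs, the limit it allows (28 CPM in the vehicle cells, where the exact 2-sided interval ends at 34.4 CPM), and 583 of the genes were at 0 in the vehicle cells. A gene at 0 there with few high dose UMIs can lie over 2-fold below this limit and count as lower, which it cannot be. The 953 and the 12.9% are thus upper limits, as are counts lower in the lists below. How many such genes they hold was not counted. With at least 100 UMIs no such gene can count as lower. The counts lean on shallow genes: with at least 100 UMIs, 468 of 3446 (13.6%) were higher and 161 (4.67%) lower, and with at least 250 UMIs, 167 of 1436 (11.6%) were higher and 29 (2.02%) lower.

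The ubiquitin-conjugating enzyme of the anaphase-promoting complex, Ube2c (chr2:164769898-164778822), had 1 UMI in the vehicle cells, 77 in the low dose cells and 1228 in the high dose cells, or 9.33, 284 and 493 CPM. Its log2 ratio was 5.72 (3.24 to 11.03) at the high dose. Birc5 (chr11:117849251-117855743), which encodes survivin of the chromosomal passenger complex, had 0, 77 and 713 UMIs and was at least 10.2-fold higher at the high dose. None of the 6 vehicle cells of at least 10000 UMIs had a UMI of either gene, while 38 of the 49 such high dose cells had Ube2c and 35 had Birc5.

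Other mitotic genes were higher as well. The kinetochore protein Cenpf (0, 225 and 241 CPM), the spindle midzone protein Prc1 (0, 103 and 121 CPM) and the cyclin Ccna2 (0, 129 and 111 CPM) were at least 8.61-fold, 4.32-fold and 3.96-fold higher after the high dose. Cdc20, the activator of the anaphase-promoting complex, had 1, 47 and 401 UMIs, a log2 ratio of 4.11 (1.62 to 9.42). The cytokinesis protein Anln had 1, 49 and 394 UMIs (4.08, 1.60 to 9.39) and the centromeric histone Cenpa 4, 92 and 677 UMIs (2.87, 1.5 to 4.75). Top2a (chr11:98992943-99024189), the topoisomerase of chromosome segregation, had 9, 110 and 1178 UMIs, a log2 ratio of 2.49 (1.56 to 3.63). In the 6 deep vehicle cells Top2a ran from 0 to 244 CPM with a median of 0, in the 9 low dose cells from 28 to 1578 CPM with a median of 194, and in the 49 high dose cells from 0 to 2783 CPM with a median of 104. The ranges overlapped, and the groups differed in how many cells were high.

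Genes of DNA replication and growth followed. Mcm3, a subunit of the replicative helicase, had 0, 34 and 283 UMIs and was at least 4.06-fold higher after the high dose. Atad2, a chromatin ATPase of proliferating cells, had 2, 62 and 502 UMIs (3.43, 1.57 to 6.48) and the nucleolar protein Nop56, needed for ribosome assembly, 3, 63 and 563 UMIs (3.01, 1.46 to 5.30). The other barcodes of the library were a mixture of cell types that differed between the groups. Neutrophil transcripts in them stood at 147011 CPM after the vehicle and 79361 CPM after the high dose, and macrophage transcripts at 1232 and 3715 CPM. Ratios in the other barcodes, here and below, are thus no like-for-like control. In the other barcodes of the library the ratios were -0.62 for Ube2c, -0.73 for Birc5, -0.28 for Top2a, -0.75 for Cenpa, -0.10 for Atad2 and 0.46 for Nop56. In the 446 endothelial barcodes among these (23 vehicle, 90 low dose and 333 high dose) Ube2c stood at 16.7 CPM after the vehicle and 79.0 CPM after the high dose, a ratio of 2.24 with an interval of -0.28 to 7.56, and Cenpa at 16.7 and 36.9 CPM (1.14, -1.43 to 6.49). Birc5, Cenpf and Top2a were at 0 in the vehicle endothelial barcodes and at 33.7, 36.9 and 40.0 CPM in those of the high dose. The levels of these 5 genes were thus above those of the vehicle in endothelial barcodes too, but on only 59847 vehicle UMIs, and the intervals of all 5 ratios reached below 0. Ccna2 (0 and 19.0 CPM), Prc1 (16.7 and 20.0 CPM) and Nop56 (66.8 and 70.6 CPM) also stood above the vehicle there, with intervals that reached below 0. Anln (66.8 and 2.11 CPM), Cdc20 (16.7 and 11.6 CPM), Mcm3 (117 and 78.0 CPM) and Atad2 (33.4 and 30.6 CPM) stood lower there after the high dose, beyond counting error for Anln. The Anln difference rests on few UMIs and 23 vehicle barcodes, and its interval does not cover differences between cells.

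**Figure D3:**
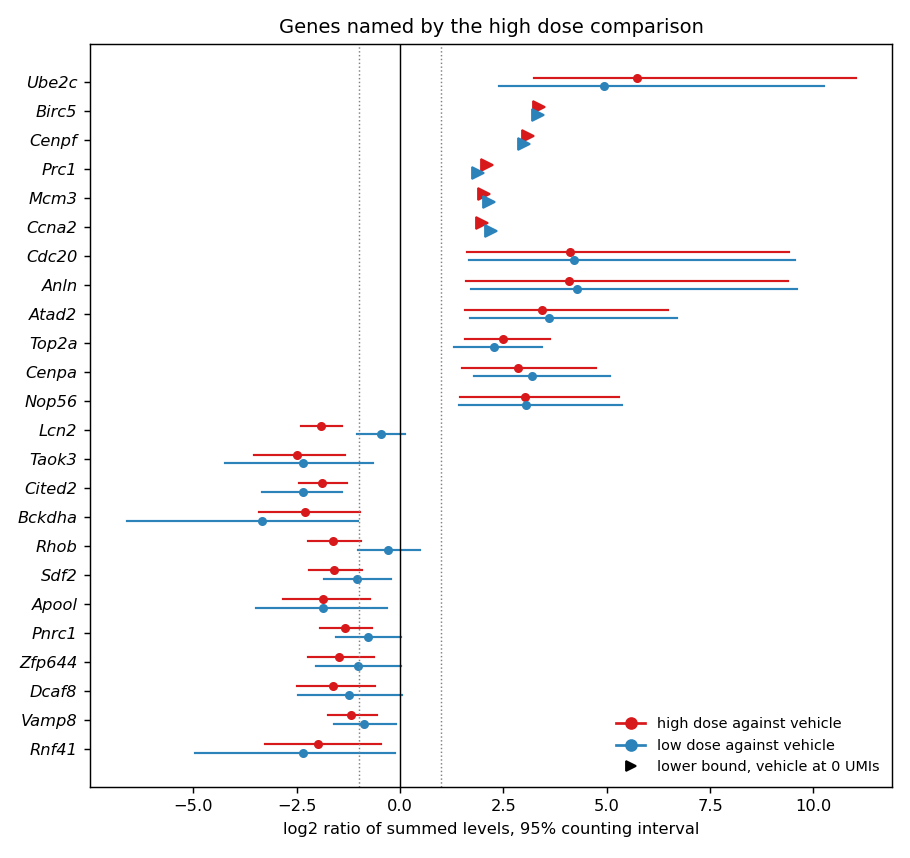
Log2 ratios of summed levels (points) with 95% counting intervals (lines) for the 12 highest and 12 lowest genes, by interval bound, of the high dose comparison, beside the low dose. Triangles are lower bounds for genes at 0 UMIs in the vehicle cells. The values of the higher genes at the 2 doses lay close together; both share the same 13 vehicle cells.

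As lists, the cell cycle genes stood apart from the background. Of 50 G2M phase genes with enough UMIs, 30 were at least 2-fold higher and 1 lower after the high dose, against 11.5% of all genes higher and 12.9% lower, with a median log2 ratio of 1.29 (median of all genes tested, -0.09). In these medians the 21 G2M and 12 S phase genes at 0 in the vehicle cells stand at the limit of 3 UMIs, as lower bounds. The 583 such genes stand there in the median of all genes too, and the 12.9% lower is an upper limit for the same reason. Their summed levels were 1484, 7252 and 6755 CPM in the vehicle, low dose and high dose groups, giving a log2 ratio of 2.19 (1.96 to 2.42) at the high dose. Of 36 S phase genes, 15 were higher and 1 lower (median 0.83), with summed levels of 719, 2611 and 2207 CPM and a ratio of 1.62 (1.29 to 1.96). Hmgb2, a chromatin protein of dividing cells, was the most abundant G2M gene (299, 1006 and 781 CPM), and Pcna, the sliding clamp of DNA polymerase, the most abundant S phase gene (84.0, 180 and 156 CPM). In the other barcodes the G2M list stood at 4897 CPM after the vehicle and 3344 CPM after the high dose. Their mixture of cell types differed between the groups. In the endothelial barcodes the list stood at 902 and 1627 CPM. The median deep cell devoted 0.0755% of its UMIs to the G2M list in the vehicle group, 0.609% in the low dose group and 0.382% in the high dose group. 27 of the 49 high dose cells and 5 of the 9 low dose cells lay above the highest of the 6 vehicle cells (0.332%).

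These differences moved with depth and with single barcodes. As a mean over cells, in which each cell counts alike, the ratio at the high dose was 0.97 for the G2M list and 0.43 for the S phase list. The depth ranges that follow leave out the cells with at least 0.5% hepatocyte transcripts. Among cells of 10000 to 20501 UMIs, the range of the deep vehicle cells, 6 vehicle cells held the G2M list at 1293 CPM and the S phase list at 690 CPM, against 1664 and 370 CPM for 6 cells of the high dose. Of the 16815 G2M UMIs of the high dose group, 15929 came from the 43 cells above 20501 UMIs. There the G2M list was 7218 CPM and no vehicle cell lay. In cells of 3000 to under 10000 UMIs it was 1048 CPM in 2 cells of the vehicle against 4083 CPM in 22 of the high dose, and below 3000 UMIs 7539 CPM (31 UMIs) in 3 against 5186 CPM in 22. A vehicle barcode left out for a single Ptprc UMI, with 12 Krt18 and 76 Vim UMIs, had 2.57% of its 20694 UMIs in the G2M list. The other vehicle barcode left out in this way, with 36068 UMIs, 79 of Krt8 and 122 of Krt18, had 0.141%. With up to 1 Ptprc UMI allowed, the list's ratio dropped to 0.54 and Prc1 turned to -0.33. The part of depth, and of which cells were caught, in the cell cycle difference was not tested.

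**Figure D4:**
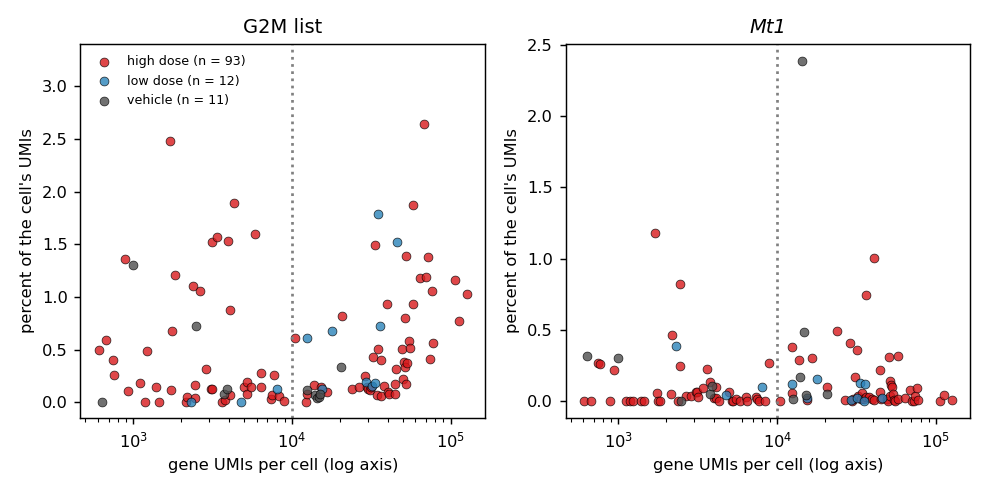
Percent of each cell's UMIs in the G2M list (left) and in Mt1 (right) against its depth (log axis), for the 11 vehicle, 12 low dose and 93 high dose cells with under 0.5% hepatocyte transcripts. The vehicle cells of at least 10000 UMIs lie at or below 0.332% for the G2M list, and the high dose cells of that depth reach 2.64%.

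The promoters of 3 of the higher G2M genes are shown because genes of this phase often share the CHR and CCAAT elements. Each is the RefSeq stretch from 250 bases before to 50 bases after the start (GRCm38.p6), 5′ to 3′ on the strand of the gene. Capitals mark the CHR letters TTTGAA or TTCGAA and the letters CCAAT, on both strands; the letters can overlap.
Ube2c, chr2:164769679-164769978, plus strand: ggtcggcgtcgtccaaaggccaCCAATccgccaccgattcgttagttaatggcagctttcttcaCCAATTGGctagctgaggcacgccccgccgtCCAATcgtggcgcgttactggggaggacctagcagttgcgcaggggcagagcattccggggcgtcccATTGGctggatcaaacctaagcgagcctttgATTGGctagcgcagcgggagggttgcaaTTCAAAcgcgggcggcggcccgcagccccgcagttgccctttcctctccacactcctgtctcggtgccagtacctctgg
Ccnb2, chr9:70421505-70421804, minus strand: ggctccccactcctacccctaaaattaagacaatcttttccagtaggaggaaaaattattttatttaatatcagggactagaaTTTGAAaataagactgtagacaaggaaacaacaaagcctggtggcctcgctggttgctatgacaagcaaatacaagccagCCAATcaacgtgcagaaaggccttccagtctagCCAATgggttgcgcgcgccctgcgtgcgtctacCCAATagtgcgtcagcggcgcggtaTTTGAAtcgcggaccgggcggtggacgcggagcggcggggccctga
Top2a, chr11:99024140-99024439, minus strand: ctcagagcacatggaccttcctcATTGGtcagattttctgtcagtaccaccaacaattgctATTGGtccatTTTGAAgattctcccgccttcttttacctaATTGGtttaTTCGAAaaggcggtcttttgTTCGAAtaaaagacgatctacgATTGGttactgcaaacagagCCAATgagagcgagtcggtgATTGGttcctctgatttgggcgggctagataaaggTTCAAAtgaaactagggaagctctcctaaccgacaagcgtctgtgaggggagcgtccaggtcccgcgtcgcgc
Ube2c holds 1 CHR and 6 CCAAT matches, Ccnb2 2 and 3, and Top2a 4 and 6. Of 32851 RefSeq promoters of this length, 19.2% hold the CHR letters and 37.4% CCAAT. The promoter of Birc5 holds neither in this window. The cyclin Ccnb2 itself had 1, 49 and 330 UMIs, a log2 ratio of 3.83 (1.34 to 9.14).

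By the interval bound nearest to no change, the genes lower after the high dose were led by Lcn2 (chr2:32384633-32388252), which encodes the iron-siderophore carrier lipocalin 2. It had 41 UMIs in the vehicle cells, 75 in the low dose cells and 252 in the high dose cells, or 383, 276 and 101 CPM, with a log2 ratio of -1.92 (-2.40 to -1.41) at the high dose. The 6 deep vehicle cells ran from 139 to 661 CPM with a median of 324 CPM, and the 49 deep high dose cells from 0 to 3029 CPM with a median of 13.0 CPM. Lcn2 is also a neutrophil gene, detected in 95.9% of the neutrophil barcodes. The 10 neutrophil genes summed to 485, 225 and 272 CPM in the members, led by S100a9 (233, 136 and 150 CPM), with 4 of them at 0 in the vehicle cells, and Lcn2 in the other barcodes had a ratio of -0.58. Their part in the Lcn2 difference was not tested.

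Cited2 (chr10:17723218-17725674), a transcriptional coregulator induced by hypoxia and shear stress, had 30, 15 and 189 UMIs, or 280, 55.2 and 75.9 CPM, and a log2 ratio of -1.88 (-2.44 to -1.28). All 6 deep vehicle cells had it (67.4 to 560 CPM, median 261), as did 6 of the 9 low dose cells (highest 137 CPM) and 44 of the 49 high dose cells (highest 293 CPM). Rhob, an endosomal small GTPase, had 24, 50 and 182 UMIs (-1.61, -2.23 to -0.94), and the kinase Taok3 10, 5 and 41 UMIs (-2.50, -3.52 to -1.34). The others were Bckdha (-2.29), Sdf2 (-1.59), Apool (-1.86), Pnrc1 (-1.33), Zfp644 (-1.47), Dcaf8 (-1.61), Vamp8 (-1.18) and Rnf41 (-1.99), with vehicle counts between 6 and 28 UMIs. In the other barcodes their ratios ran from -0.51 for Pnrc1 to 0.33 for Sdf2. In the endothelial barcodes Pnrc1 and Rhob were lower as well, at -1.32 (-2.12 to -0.43) and -1.15 (-1.77 to -0.46).

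Metallothioneins, small metal-binding proteins, were higher in the vehicle cells as a sum over cells, a pair of genes taken up after their values were seen. Mt1 had 6159, 622 and 1512 CPM and Mt2 1502, 324 and 421 CPM, a ratio of the sum of -1.99 (-2.09 to -1.88) at the high dose. A single vehicle cell held 52.6% of the vehicle UMIs of the pair, and leaving out each vehicle cell in turn gave -2.26 to -1.12. As a mean over cells the ratio was -0.49. Requiring at least 1 Epcam UMI, which kept 3 vehicle cells, turned the ratio of the sum to 0.063. The deep vehicle cells ran from 160 to 23869 CPM of Mt1 (median 1103) and the deep high dose cells from 0 to 10035 CPM (median 351), so the groups overlapped. For Ifitm1, 1 cell held 74 of the 76 vehicle UMIs, and for Mgp 1 cell held 101 of 140.

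Immediate early genes, which respond to stress and growth factors within minutes, were lower as a sum, at 2491 CPM after the vehicle and 1539 CPM after the high dose (-0.69, -0.87 to -0.51; -0.12 as a mean over cells). Of 18 tested, 2 were at least 2-fold higher and 4 lower, beside 11.5% and 12.9% of all genes. The lower genes were Ier2 (26, 20 and 208 UMIs, -1.54), Zfp36, which destabilizes cytokine mRNAs (11, 3 and 60 UMIs, -2.09), Klf2 (17, 20 and 65 UMIs, -2.60) and Klf4 (9, 10 and 35 UMIs, -2.58). Junb (-0.84) and Jund (-0.96) were lower by less than 2-fold. In the other barcodes, a mixture of cell types that differed between the groups, this list went from 5723 to 2478 CPM.

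Of 14 genes of FACT and the other histone chaperones, 4 were at least 2-fold higher after the high dose (11.5% of all genes) and none lower, with a median of 0.40. They summed, with Npm1 the most abundant, to 3779, 4527 and 5392 CPM (0.51, 0.37 to 0.66). The FACT subunit Ssrp1 had 15, 48 and 470 UMIs, a ratio of 0.43 (-0.30 to 1.28), and Supt16 7, 33 and 357 UMIs, a ratio of 1.14 (0.08 to 2.46). The nucleolar protein Ncl stood at 513, 1020 and 1137 CPM (1.15, 0.76 to 1.56). The variant histone H2afz, common in dividing cells, stood at 364, 1182 and 1266 CPM (1.80, 1.34 to 2.29), while the linker histone Hist1h1c was lower (93.3, 66.3 and 24.1 CPM, -1.95).

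Heat shock genes summed to 7353, 8954 and 10373 CPM (0.50, 0.39 to 0.60), with 5 of 15 higher and 1 lower. This count and those of the lists that follow stand beside 11.5% of all genes higher and 12.9% lower. Hspe1 (196, 475 and 511 CPM) and Hspd1 (261, 324 and 505 CPM), the mitochondrial chaperonins, had ratios of 1.38 and 0.95, and the cytosolic chaperones Hspa8 and Hsp90ab1 ratios of 0.19 and 0.40. In the unfolded protein response list 1 of 15 genes was higher, Hsp90b1 (1.40), and 2 were lower, one of them Herpud1 (-2.15).

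Of the p53 target genes 2 of 15 were higher and 2 lower, near the shares of all genes. Their median ratio was -0.63, against -0.09 for all genes, while the ratio of their sum had the opposite sign, at 0.17 (-0.09 to 0.44). Cdkn1a, the p53-induced cell cycle inhibitor, had 2, 2 and 99 UMIs (1.09, -0.80 to 4.16), and the death receptor Fas 7, 4 and 25 UMIs (-2.70). The NF-kB list had a ratio of -0.36 (-0.56 to -0.15), which turned to 0.64 without 1 vehicle cell that held 59.4% of its UMIs, with 1 of 20 genes higher and 2 lower, among them Lcn2. The inhibitor Nfkbia stood at 308, 158 and 170 CPM as a sum (-0.86). Its medians in the deep cells ran the other way, at 73.7, 160 and 131 CPM, and the highest deep vehicle cell stood at 1415 CPM. Of the 6 genes of Z-nucleic acid sensing and necroptosis with enough UMIs, none passed 2-fold, and Zbp1, the Z-nucleic acid sensor, had 5, 7 and 74 UMIs (-0.65, -1.94 to 1.01).

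MHC class I genes, with the antigen processing machinery, summed to 9947, 10538 and 8418 CPM (-0.24, -0.33 to -0.15; up to 0.032 when 1 vehicle cell was left out), with 1 of 18 higher and 2 lower. H2-D1 was the most abundant, at 3611, 3414 and 2869 CPM. Interferon-stimulated genes had a ratio of 0.34 (0.14 to 0.56), with 4 of 20 higher and 4 lower. Of the secreted factors 3 of 21 were higher and 4 lower. Csf3 had 29, 59 and 386 UMIs (271, 217 and 155 CPM), of which 24 of the 29 vehicle UMIs came from 1 cell, and its ratio of -0.80 turned to 1.43 without 1 vehicle cell. The alarmin Il33 had 18, 40 and 89 UMIs (-2.23), of which 1 cell held 72.2% of the vehicle UMIs.

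The rule itself used Krt8 (1381, 1543 and 1431 CPM), Krt18 (1437, 1433 and 1316 CPM) and Epcam, which had 3, 2 and 145 UMIs (1.06, -0.52 to 3.35). Of 9 other epithelial genes tested none passed 2-fold, and the sum of the whole epithelial list of 20 genes had a ratio of -0.03 (-0.31 to 0.26). Of 3 mammary genes with enough UMIs, 1 was higher, Areg, which encodes the EGF receptor ligand amphiregulin (1, 3 and 231 UMIs, the last in 36 cells; 3.31, 0.82 to 8.62). The mesenchymal list had a ratio of 0.16 (0.05 to 0.26), with 2 of 11 higher, Sparc (1.34) and the receptor kinase Axl (2.44), and 3 lower, among them the transcription factors Snai1 (-1.93) and Zeb2 (-1.32). Of the protease and invasion genes 6 of 21 were higher and 4 lower; Mmp3, a stromelysin, had 3, 42 and 457 UMIs (2.71, 1.16 to 5.00). All 291 UMIs of Mmp7, at 0 in the other groups, came from 1 high dose cell. Saa3 had 0, 95 and 1751 UMIs, of which 1 high dose cell gave 98.2%.

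Of the genes of growth and metabolism, 4 lists had ratios of the sum within 0.5 of 0 on the log2 scale, with single genes beyond 2-fold. The MYC target and nucleolar list had a ratio of 0.47 (0.34 to 0.61), with 5 of 19 genes higher and none lower. Besides Nop56 and Ncl these were Odc1, which makes polyamines (17, 68 and 804 UMIs, 1.03), Cad, which starts pyrimidine synthesis (1, 4 and 89 UMIs), and Rrp9, a ribosome assembly factor (3, 12 and 144 UMIs). Nuclear genes of oxidative phosphorylation had a ratio of 0.24 (0.16 to 0.32), with 1 of 31 higher, Uqcrq of complex III (1.19), and the genes of the mitochondrial genome a ratio of -0.21 (-0.25 to -0.17), with 1 of 13 lower. In the hypoxia and glycolysis list (-0.10, -0.17 to -0.03) the collagen hydroxylase P4ha1 (1.72) and the oxidase Ero1l (1.2) were the higher 2 of 27, and the mitophagy receptor Bnip3 (43, 41 and 358 UMIs, -1.48) the lower.

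In the cholesterol synthesis list 2 of 15 genes were higher and 1 lower (0.29, -0.13 to 0.74), and in the glutathione and NRF2 list 2 of 14 were higher and 1 lower, the heme oxygenase Hmox1 (7, 16 and 55 UMIs, -1.56). BCL2 family genes had 1 of 8 higher, Bcl2 itself (1, 9 and 64 UMIs), and 1 lower, its antagonist Bcl2l11 (6, 14 and 58 UMIs). The checkpoint and evasion list had a ratio of -0.40 (-0.69 to -0.09), with Cd47, the signal that restrains phagocytosis, as its most abundant gene.

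Transcripts of other cell types differed between the groups as well. Hepatocyte transcripts summed to 924, 66.3 and 444 CPM with Trf the most abundant, fibroblast transcripts to 18.7, 611 and 316 CPM, and mesothelial transcripts to 56.0, 214 and 268 CPM. Endothelial transcripts were near 0 (9.33, 7.37 and 16.1 CPM). Macrophage transcripts were at 9.33, 7.37 and 13.7 CPM, a level that the limit of the rule on C1q UMIs holds down. The cholangiocyte list came to 243, 133 and 121 CPM, mostly of Sox9. Lymphocyte transcripts came to 84.0, 3.68 and 2.41 CPM, all 9 vehicle UMIs from 1 cell of 12499 UMIs. It had 8 UMIs of Nkg7 and 1 of Ncr1, genes of natural killer cells, 74 of Ifitm1 and 4 of Krt18, and none of Krt8, Epcam or Wfdc2. Its transcripts thus go against the label of a tumor cell, and it is 1 of the 6 deep vehicle cells and of the 105 cells in none of the separated kinds. Without it the G2M ratio at the high dose was 2.14 (1.91 to 2.39), that of Lcn2 -2.02 (-2.52 to -1.5) and that of Cited2 -1.68 (-2.31 to -0.99). Their part in the differences between the groups was not tested. In the 105 cells of none of the separated kinds, the ratio of the G2M list was 2.24 and that of Cited2 -1.80.

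**Figure D5:**
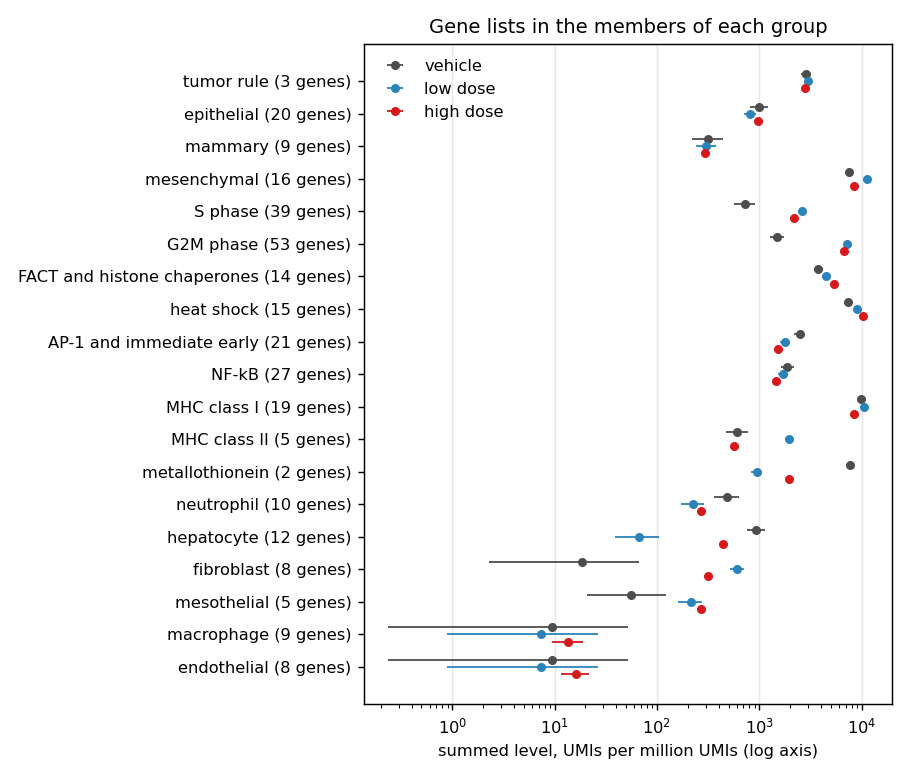
Summed level (UMIs per 1000000 UMIs, log axis) of 19 gene lists in the members of the vehicle, low dose and high dose groups, with 95% Poisson intervals. The G2M and S phase lists lie lowest in the vehicle cells and metallothioneins highest there, while the marker, epithelial and mammary lists lie together.

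The low dose comparison rests on 12 cells and the same 13 vehicle cells. Its cells were deeper than the vehicle cells and showed the higher cell cycle genes too. Of 1968 genes that reached 30 UMIs here, 270 (13.7%) were at least 2-fold higher and 77 (3.91%) at least 2-fold lower. With at least 100 UMIs the counts were 45 (9.34%) and 6 (1.24%) of 482, and with at least 250 UMIs 14 (6.76%) and 1 (0.483%) of 207. Of the G2M genes 20 of 23 were higher and none lower (median 2.27), and of the S phase genes 9 of 10 were higher and none lower. The summed G2M ratio was 2.29 (2.06 to 2.53), and 0.68 with up to 1 Ptprc UMI allowed. As a mean over cells it was 1.13, and that of the S phase list 1.22 against 1.86 for the sum. Among cells of 10000 to 20501 UMIs the G2M list was 4700 CPM in 3 low dose cells against 1293 CPM in the 6 vehicle cells.

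Among single genes, Mcm3 was at least 4.47-fold higher, and Axl, the receptor tyrosine kinase of mesenchymal and invasive tumor cells, had 18.7 CPM in the vehicle and 188 CPM in the low dose cells (log2 ratio 3.33, 1.40 to 6.42). All 9 deep low dose cells had Axl (60.2 to 342 CPM), against 1 of the 6 deep vehicle cells (48.8 CPM), so these did not overlap. In most of the deep vehicle cells, which were shallower, a single UMI already stands above 60.2 CPM, so depth limits this comparison. H2afz had a ratio of 1.70 (1.22 to 2.22), the cytoskeletal genes Actb 1.22 (1.03 to 1.41) and Tpm1 1.64 (0.97 to 2.39), and the endoplasmic chaperone Hsp90b1 1.42 (0.94 to 1.94). By the interval bound nearest to no change, and within the limit on single cells, Cited2 was the lowest, at -2.34 (-3.34 to -1.40). Mt1 was lower still by its levels (6159 and 622 CPM), but 1 cell held 52.0% of its vehicle UMIs. Rps27rt (-1.78), Aldh2 (-1.16), Pfdn5 (-0.91), Tpt1 (-0.52) and the elongation factor Eef1a1 (-0.47) were the other low genes named by this rank, the last 3 by less than 2-fold. Reads of Rps27rt, a copy of a ribosomal protein gene, may be shared with its parent gene. The immediate early list had a ratio of -0.50 at this dose (-0.72 to -0.28; 0.25 as a mean over cells), with 2 of 9 genes at least 2-fold lower (3.91% of all genes).

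MHC class II genes, which present antigen to CD4+ T cells, were all 4 at least 2-fold higher at the low dose (13.7% of all genes), with a sum of 607 CPM in the vehicle, 1937 CPM in the low dose and 561 CPM in the high dose cells. H2-Aa had 4, 85 and 167 UMIs and Cd74 39, 302 and 942 UMIs. A single low dose cell held 54.4% of the class II UMIs of its group, and a single vehicle cell 69.2%. In cells of 10000 to 20501 UMIs the low dose ratio of the list was -2.93. At the high dose its ratio of -0.11 turned to 1.28 without 1 vehicle cell.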

How the data were processed

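The files the authors deposited hold raw counts (UMIs) of genes and hashtags in filtered barcodes, with neither normalization nor cell types, from Cell Ranger (5.0.0 in the matrix header, 6.0.0 in the submitters' processing notes, which name mm10). Gene positions are from the GENCODE annotation of GRCm38, and promoters from RefSeq. Gene counts were summed over the cells of a group and scaled to UMIs per 1000000 (CPM), with exact Poisson intervals; intervals of ratios are conditional binomial ones (exact), all at 95%. Genes were compared where both groups together held 30 UMIs or more, and called means at least 2-fold. Doublets within a hashtag were not called. No filter on mitochondrial UMIs was set, and they reached 66.5% of a member. The ratio was tested on simulated counts with Poisson error alone and no variation between cells. That test could not show how the intervals hold where single cells carry many of the UMIs. Python 3.11.15, scipy 1.17.1, R 4.3.3 and Seurat 5.3.0 were used. The members and lists were chosen with earlier results of these data known. Single genes were named as the 12 highest and lowest (6 at the low dose) by the interval bound nearest to no change, with UMIs in at least 5 cells of the higher group and no cell of it over 25% of them, without mitochondrial, blood cell and hepatocyte genes and the ribosomal protein list, which lacks Rps27rt. Also named were the 15 most abundant genes, the 15 highest over other barcodes and members of the lists; kinds of cells and the metallothioneins were added after their values were seen. Alternatives covered hashtag calls, the marker rule, scaling, gene filters and single cells.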

Additional observations from a re-analysis of the deposited data

Results flagged for a closer look

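In the library of the tumor cells, 14 further barcodes met the marker rule but had no dominant hashtag, so they belonged to no group and entered no comparison. Their leading hashtag had a median of 48.5 UMIs and was that of the vehicle group in 2, of the low dose group in 0 and of the high dose group in 12 of them. They had a median of 1815.5 gene UMIs, and hepatocyte transcripts made up at least 0.5% of UMIs in 3.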

How the results depend on the processing

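No paired analysis was possible because each group was 1 pooled sample without replicates. Of 1364 ratios of single genes and lists under the alternatives, 1078 stayed within the counting interval of the reported ratio, 276 moved beyond it and 10 had the opposite sign to a ratio of at least 2-fold, 3 of them only as lower bounds. Counts of genes, which have no such interval, are given below where they differed by over 1.5 times. Of the ratios under 2-fold, 45 values in 18 results had the opposite sign, 2 of them as lower bounds. At the high dose, the genes higher numbered 501 with at least 1 Epcam UMI required, 27 in cells of 10000 to 20501 UMIs, 1560 as a mean over cells, 468 with at least 100 UMIs and 167 with at least 250 UMIs, and the genes lower numbered 517 with HTODemux hashtag calls (which kept 41 high dose cells), 431 with Epcam, 73 in that depth range, 2895 with at least 10 UMIs, 161 with at least 100, 29 with at least 250 and 444 with 10 CPM added. The 2895 includes genes at 0 in the vehicle cells whose few high dose UMIs lie over 2-fold below the limit of 3 counts. It is thus an upper limit, and the number of such genes was not counted. At the low dose, the genes higher numbered 96 with Epcam, 85 in the depth range, 858, 45 and 14 with at least 10, 100 and 250 UMIs, and the genes lower 28 with Epcam, 153 as a mean over cells, and 479, 6 and 1 with those minimums. The share of cells that met the rule in the high dose group was 3.92% with at least 5 marker UMIs and 3.97% without cells of at least 0.5% hepatocyte transcripts. With Epcam required, the shares were 0.366% (vehicle), 0.152% (low dose) and 0.853% (high dose), with overlapping intervals. At the high dose the values of opposite sign were, with Epcam, those of Mt1 (0.58) and the metallothionein sum (0.063), with up to 1 Ptprc UMI for Prc1 (-0.33), in the depth range for Top2a (-1.15) and the S phase list (-0.90), and as a mean over cells for Mt2 (0.16). With the vehicle cells at 0 UMIs, the values of Ccna2 (-0.014) and Prc1 (-0.036) with Epcam and of Saa3 (-1.39) in the 105 remaining cells are lower bounds, which show no change of sign. The MHC class II list changed sign at the low dose in the depth range (-2.93). As a mean over cells the G2M and S phase ratios at the high dose were 0.97 and 0.43, and leaving out each vehicle cell in turn gave 2.03 to 2.69 and 1.44 to 2.12. Cells of at least 10000 UMIs, the depth range, the gene minimum of 250 UMIs, the 105 remaining cells and leaving out each vehicle cell were chosen after seeing the data. The cause of these changes was not tested. With 107167 UMIs in 13 vehicle cells, a gene at 0 there could stand at up to 28 CPM (3 counts), or 34.4 CPM by the exact interval.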
